A study of Pinus pinaster with 4 samples.

Results

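The contig sp_v3.0_unigene22311 of maritime pine (*Pinus pinaster*) was followed through 4 needle libraries, L6 and L7 from 2 plants of Leiria provenance and T3 and T6 from 2 of Tamrabta provenance. It is 1 contig of the 17571 in the deposited RNA-Seq table and was taken by its identifier, because the study lists it as *FT*. Its description there is a terminal flower-like protein of Norway spruce. Leiria comes from the Portuguese coast and Tamrabta from the Moroccan Atlas, and the question was whether needles of such contrasting origins differ when the plants share the same conditions. All plants were greenhouse-grown rooted cuttings, 17 months old when potted, which were fed through the irrigation water and had their branches pruned so that new axillary shoots formed. Adult needles were taken, from every plant on 1 day at 1 hour, and the labels give no treatment that separates the groups. The cuttings belonged to a clonal collection, and the sources used here do not tell whether the plants of a provenance were of the same clone. Each library is 1 plant, so every spread below is a spread between 2 plants.

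*FT* and *TFL1* belong to a family of small phosphatidylethanolamine-binding proteins. In *Arabidopsis*, FT is made in leaves under inductive day length, moves to the shoot apex and promotes flowering, while TFL1 acts in the apex and delays it. Conifers carry FT/TFL1-like genes, and in Norway spruce a member of this family is associated with growth cessation and bud set at the end of the season. The study lists the contig as *FT* among its light and clock genes. Its discussion, however, names the same contig as a member of the *TFL1* family. The similarity that gave the contig its description does not assign it to either side. It is therefore called the FT/TFL1-like contig here.

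The values are counts per 1000000 mapped reads (CPM) after the authors' TMM scaling, which corrects for library composition. Each deposited value was a whole multiple of the CPM of 1 count, so the counts could be read back, and they totalled between 40019608 and 58835449 per library. CPM are not divided by contig length. A rank among contigs therefore mixes transcript number with length. Reads from close family members could have been shared between contigs, since no source used here states how reads fitting several contigs were treated.

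The FT/TFL1-like contig showed low expression in Leiria and moderate expression in Tamrabta. In L6 it had 2 counts, or 0.055 CPM (exact Poisson 95% interval 0.00666 to 0.199). In L7 it had 68 counts, or 1.16 CPM (0.903 to 1.47). In T3 it had 237 counts, or 4.70 CPM (4.12 to 5.33). In T6 it had 333 counts, or 7.40 CPM (6.63 to 8.24). Both Tamrabta plants were above both Leiria plants, and the intervals, which cover counting error only, did not overlap for any pair of libraries. L6 was under the limit of 3 counts set here, which is 0.0825 CPM in that library, so the contig was treated as not detected there at this depth. Leiria had a mean of 0.609 ± 0.783 CPM (SD, n = 2). Tamrabta had a mean of 6.05 ± 1.91 CPM (SD, n = 2). The SD was 129% of the mean in Leiria and 31.6% in Tamrabta. In bulk needle RNA a lower level in each expressing cell and fewer expressing cells cannot be told apart.

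**Figure D1:**
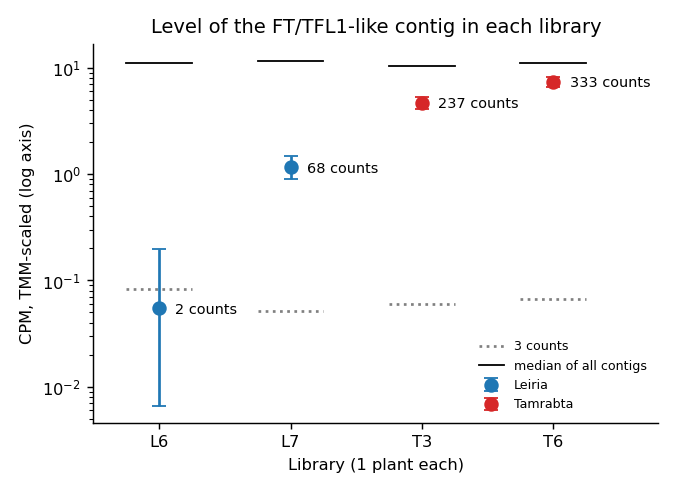
Level of the FT/TFL1-like contig in CPM (log axis) in each library, with exact Poisson 95% intervals as bars, the level of 3 counts as dotted lines and the median of all contigs as black lines. The 2 counts of L6 lie under the dotted line, L7 lies at 1.16 CPM, and T3 and T6 lie at 4.70 and 7.40 CPM, below the median of all contigs in their libraries.

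The rank of the contig changed with its level. It stood at rank 17443 of 17571 in L6, where 99 contigs were lower and 58 of those had 0 counts. It stood at rank 15826 in L7, at rank 11059 in T3 and at rank 9957 in T6. The share of contigs below it was 0.563% in L6 and 9.63% in L7, beside 37.0% in T3 and 43.3% in T6. It was thus among the least abundant contigs in L6, still in the lowest 9.63% in L7, and below the middle of the table in both Tamrabta plants. By its mean over the 4 libraries, 3.33 CPM, 29.1% of contigs were lower.

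**Figure D2:**
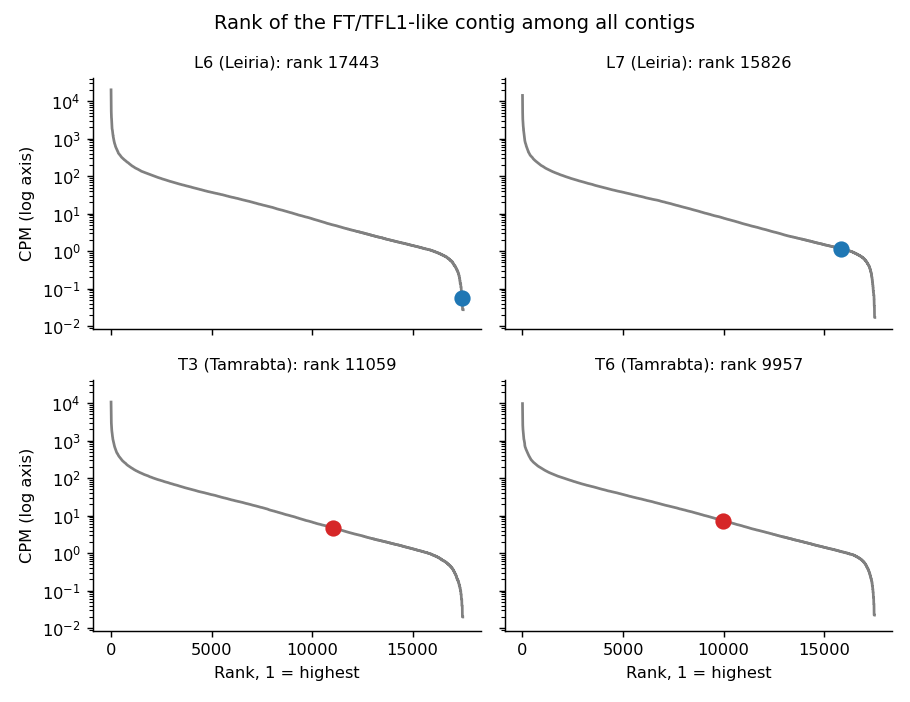
CPM (log axis) of all contigs against their rank in each library, with the FT/TFL1-like contig as a dot. The dot is at the foot of the curve in L6 (rank 17443), on its lower bend in L7 (rank 15826), and on its straight middle part in T3 (rank 11059) and T6 (rank 9957).

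The levels in L6, L7, T3 and T6 were compared as steps, from the lowest to the highest. L7 was 21.1-fold above L6 (95% interval 5.63 to 178, counting error only). The step from L7 to T3, which separates the provenances, was 4.04-fold (3.07 to 5.37). T6 was 1.58-fold above T3 (1.33 to 1.87). Every step was thus beyond counting error, but with 1 library for each plant no step could be set against repeated libraries of a plant. Which step was the widest depended on the scale, because the first rests on the 2 counts of L6. On the log2(CPM + 0.5) scale the step from L6 to L7 was 1.58 and the step from L7 to T3 was 1.64, whereas with a pseudocount of 0.1 they were 3.03 and 1.93.

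Beside all contigs and beside those of similar mean over the 4 libraries, this spread was unusual for Leiria and ordinary for Tamrabta. On the log2(CPM + 0.5) scale the absolute difference between L6 and L7 was 1.58 for the contig, while the median over all contigs was 0.21. Of 4341 contigs with a mean CPM over the 4 libraries within 2-fold of its own (1.66 to 6.66 CPM), 127 (2.93%) differed more between L6 and L7. The median difference of the 4341 was 0.24. Both Leiria values of the contig lay below that range of CPM, so these contigs were not matched to its level in Leiria. Between T3 and T6 the contig differed by 0.61, beside a median of 0.31 over all contigs. Here 1112 of the 4341 similar contigs (25.6%) differed more. The Leiria value depended on the pseudocount, because L6 lies far below 0.5 CPM, and was 1.04 with a pseudocount of 1.

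**Figure D3:**
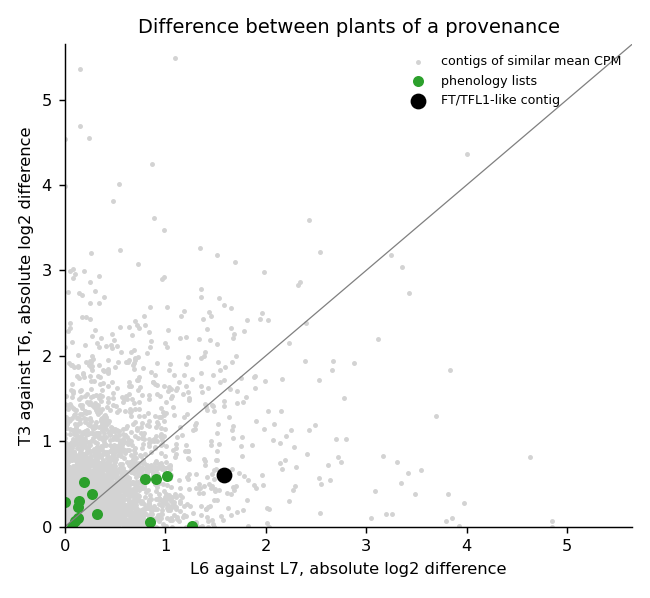
Absolute log2(CPM + 0.5) difference between L6 and L7 (horizontal) and between T3 and T6 (vertical) for the 4341 contigs of similar mean CPM (grey), 14 listed phenology and light contigs (green) and the FT/TFL1-like contig (black). The line marks equal differences, and the black point lies to its right at 1.58 and 0.61, beyond every green point on the horizontal axis at this pseudocount.

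Between the provenances, the mean CPM of the FT/TFL1-like contig was 9.94-fold higher in Tamrabta. On the log2(CPM + 0.5) scale the logFC (Leiria minus Tamrabta) was -2.74, with a standard error of 0.61 and a 95% interval from -4.37 to -1.10 in limma, fitted over the whole table. The adjusted p from limma was 0.188 (unadjusted 0.00878), so the contig did not pass the threshold of 0.05 over all contigs. Limma called 27 contigs, 0.154% of the table, while 14.7% had an unadjusted p under 0.05. An exact two-sided permutation test over the plants gave p = 0.333, the smallest value that 2 against 2 allows. The study had named this contig for higher expression in Tamrabta from measurements that included these plants, so these p-values are not independent evidence of the direction. Its array covered more plants of each provenance. For the group of light and clock genes that includes this contig, it also reports that qPCR went with its transcriptome data. Those measurements were not analysed here.

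The size of the difference placed the contig near the Tamrabta edge of the table. Only 57 contigs (0.324%) had a lower logFC, while in 23.9% of all contigs the Tamrabta plants were both above the Leiria plants and in 25.1% both below. Among the 4341 contigs of similar mean CPM, 16 had a lower logFC. Its standard error was larger than that of most of them, with a median of 0.25 in that group and 330 contigs (7.60%) above it. A difference toward Tamrabta that few contigs exceeded was thus measured with an error that few contigs of similar mean CPM exceeded. Contigs with a larger difference toward Leiria are not in these counts.

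Whether the contig was called differed between tests. With the recovered counts, the exact test of edgeR, which the study had used, gave a logFC of -3.28 and an adjusted p of 0.00847. This test called 5.99% of all contigs, 2.49% as higher in Tamrabta and 3.51% as higher in Leiria. The study reported somewhat fewer calls at these thresholds, so the test as run here did not repeat its result exactly. DESeq2 gave a logFC of -3.31 and an adjusted p of 0.0513, just outside the threshold, and called 6.19% of contigs. The quasi-likelihood test of edgeR gave -3.25 and an adjusted p of 0.346, and called 0.0114%. Over 14 alternatives of scaling, test and libraries the adjusted p ranged from 0.00847 to 0.502, and the logFC was negative in each. The size of the difference moved with either Leiria plant. Without L6 the limma logFC was -1.95, and without L7 it was -3.53. In the exact test it was -6.71 without L7, and without L6 it was -2.38 with an adjusted p of 0.161, so that the call was lost. Such fits leave 1 Leiria plant, which was assumed to vary like the other group, and those of the exact test were chosen after the data had been seen.

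**Figure D4:**
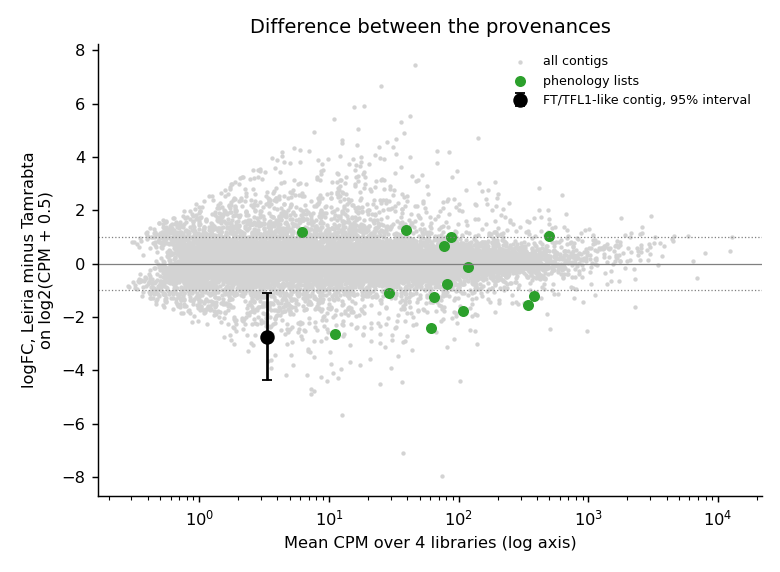
LogFC (Leiria minus Tamrabta, log2(CPM + 0.5)) against mean CPM (log axis) for all contigs (grey), 14 listed phenology and light contigs (green) and the FT/TFL1-like contig (black) with its limma 95% interval from -4.37 to -1.10. Dotted lines mark a logFC of 1 and -1, and the black point at -2.74 lies below every green point, an order that does not hold with a pseudocount of 1 or without L6.

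Markers of the tissue were compared beside this difference. Of 11 listed photosynthesis contigs that mark needles, 4 had a row, and none was at 0. All 4 had levels in the order L6, L7, T3, T6 from highest to lowest, which is the reverse of the FT/TFL1-like contig and was shared by 9.24% of all contigs. Their summed level was 5100 to 6821 CPM in Leiria and 3003 to 3912 CPM in Tamrabta. All 4 were higher in both Leiria plants (against 25.1% of all contigs), with logFC from 0.70 to 1.19. Limma called 0 of the 4, with all 4 at an unadjusted p under 0.05 (14.7%). The exact test called 1 of them (5.99%) and DESeq2 called 1 (6.19%), each as higher in Leiria. The study had already reported photosynthesis genes as more highly expressed in Leiria from these libraries. The counts for the needle markers are therefore not independent of that result. Of 11 listed contigs of dividing tissue, 5 had a row, with sums of 292 and 407 CPM in Leiria against 166 and 330 CPM in Tamrabta, which overlapped. The largest part of each sum came from 1 tubulin alpha contig (sp_v3.0_unigene21297), a microtubule subunit, at 226 and 339 CPM against 82.3 and 235. Of the 5, 2 were higher in both Leiria plants (against 25.1% of all contigs) and 1 in both Tamrabta plants (23.9%). The other 2 overlapped, and logFC ran from -0.73 to 1.51. Limma called 0 of the 5 (0.154% of all contigs), with 2 at an unadjusted p under 0.05 (14.7%). The exact test called 0 (5.99%) and DESeq2 called 1 (6.19%). The part of needle composition in the result was not tested. The totals of the scaled columns also fell from L6 to T6, and with every library summed to 1000000 the logFC was -2.82.

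Other contigs of the light and phenology pathway were set beside it. Of 20 contigs listed from the text of the study and from its array table, 14 had a row. They had been preselected, since the array rows held are those with the lowest p on RNA that included these plants. The contigs from the text were named among the study's differentially expressed genes, from tests that included these libraries. The counts of calls below are therefore not independent of that choice. Limma called 0 of the 14, with 13 at an unadjusted p under 0.05 (against 14.7% of all contigs), and the quasi-likelihood test called 0. The exact test called 8 (against 5.99% of all contigs), 6 with the higher level in Tamrabta (2.49%) and 2 in Leiria (3.51%), and DESeq2 called 9 (6.19%). Both Tamrabta plants were above both Leiria plants for 9 of the 14 (against 23.9% of all contigs), and below for the other 5 (25.1%). The median logFC was -0.92, beside 0.01 over all contigs, and the values ran from -2.62 to 1.27. On the log2(CPM + 0.5) scale none of the 14 had an absolute logFC as large as that of the FT/TFL1-like contig, and none differed as much between L6 and L7. With a pseudocount of 1, however, 2 of the 14 had a larger absolute logFC and 1 differed more between L6 and L7, and 3 had a larger absolute logFC when L6 was left out.

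In the clock and photoperiod group, 3 of 4 contigs had a row. The *LHY/CCA1* orthologue (sp_v3.0_unigene28840), in *Arabidopsis* a morning repressor of the clock, had 115 and 115 CPM in Leiria against 63.7 and 52.1 in Tamrabta, where L6 is given before L7 and T3 before T6, as throughout. It was higher in both Leiria plants. *PRR7* (sp_v3.0_unigene2301), which in *Arabidopsis* represses *LHY* and *CCA1*, had 109 and 262 CPM in Leiria against 500.0 and 496 in Tamrabta. Here L6 was again the lowest and apart from L7, with the largest difference between the Leiria plants among the 14, 1.27 on the log2(CPM + 0.5) scale. The provenances differed by a logFC of -1.56 with a standard error of 0.45, and limma gave an adjusted p of 0.262. *ELF3* (sp_v3.0_unigene6344), part of the evening complex of the clock in *Arabidopsis*, had 16.4 and 20.7 CPM in Leiria against 41.9 and 37.9 in Tamrabta. The study cites daily expression cycles of the *LHY/CCA1* homologue in Norway spruce. All values of these clock contigs are from 1 hour of the day, and levels at other hours were not measured.

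In the light response group, 4 of 5 contigs had a row. *HY5* (sp_v3.0_unigene6865), a bZIP factor of photomorphogenesis, had 36.7 and 39.5 CPM in Leiria against 94.2 and 89.6 in Tamrabta. Chalcone synthase (sp_v3.0_unigene30752), which begins flavonoid synthesis, had 25.5 and 14.0 CPM against 101 and 104. *ELIP* (sp_v3.0_unigene97042), a photoprotective protein of the thylakoid, had 291 and 168 CPM against 624 and 425. In these contigs the Tamrabta plants were higher, with L7 rather than L6 the lowest for the last pair. The contig that the study lists as *PAP2* (sp_v3.0_unigene37920) had 621 and 710 CPM in Leiria against 392 and 272 in Tamrabta, the opposite direction. The study's text places this contig among those higher in Tamrabta, which is not the direction of these RNA-Seq values.

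All 4 contigs of the flowering regulators had a row, and they did not move together. A contig described as RAV2-like (sp_v3.0_unigene34155), related to *Arabidopsis* repressors of *FT*, had 65.6 and 34.7 CPM in Leiria against 197 and 134 in Tamrabta. Its logFC of -1.76 (limma adjusted p = 0.186 with a standard error of 0.39, exact test adjusted p = 0.000542) had the sign of the FT/TFL1-like contig. The *CONSTANS-LIKE 15* contig (sp_v3.0_unigene6381), of a zinc finger family that includes the activator of *FT* in *Arabidopsis*, had 90.6 and 99.7 CPM in Leiria against 53.2 and 65.8 in Tamrabta, so that it was higher in Leiria. The array table assigns a pair of MADS-box contigs to *SOC1*, which acts downstream of *FT* in *Arabidopsis*. Of these sp_v3.0_unigene8464 had 58.4 and 53.2 CPM in Leiria against 24.8 and 21.0 in Tamrabta, a logFC of 1.27 (adjusted p = 0.104 from limma, 0.0119 from the exact test). The other, sp_v3.0_unigene37671, had 111 and 117 CPM in Leiria against 123 and 123 in Tamrabta. The logFC was -0.11 ± 0.14 (standard error), and the adjusted p of limma was 0.766.

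Of 7 contigs listed for dormancy and gibberellin, 3 had a row, all described as GID1-like, the receptor family of gibberellin. For sp_v3.0_unigene128920 the values were 4.01 and 1.73 CPM in Leiria against 15.4 and 23.5 in Tamrabta. Its logFC of -2.62 (limma adjusted p = 0.137 with a standard error of 0.43, exact test adjusted p = 0.000177) was the nearest among the 14 to that of the FT/TFL1-like contig. For sp_v3.0_unigene7655 the values were 57.9 and 63.6 CPM in Leiria against 99.1 and 107 in Tamrabta. It was the only contig of the 14 with the order L6, L7, T3, T6 from lowest to highest, an order held by 1616 contigs (9.20%) of the table. The remaining contig, sp_v3.0_unigene1944, had 7.92 and 9.64 CPM in Leiria against 3.01 and 4.09 in Tamrabta.

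**Figure D5:**
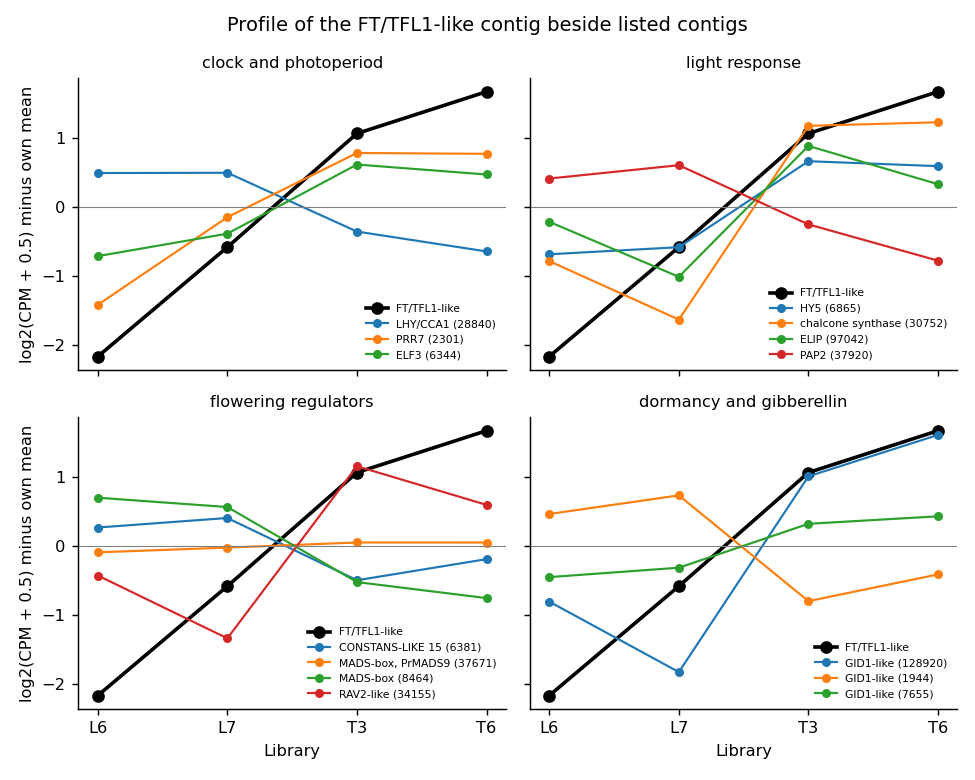
Values of log2(CPM + 0.5) minus the contig's own mean in the 4 libraries for the FT/TFL1-like contig (black, the same in each panel) and for the 14 listed contigs by group, named with the number of their unigene. Lines only join the values of a contig, and the black profile has L6 lowest and T6 highest.

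The contigs with the most similar profile were sought among 16361 contigs with a mean of at least 1 CPM, as those with the smallest root mean square difference in mean-centred log2(CPM + 0.5) over the 4 libraries. The nearest was sp_v3.0_unigene105542, described as an O-methyltransferase, at a difference of 0.10, with 1.24 and 4.10 CPM in Leiria and 13.7 and 24.9 in Tamrabta. The next was sp_v3.0_unigene33086, at 0.11, with 0.495, 2.94, 10.7 and 16.7 CPM in the same order. Then came sp_v3.0_unigene32818 (0.22), sp_v3.0_unigene95957 (0.26) and sp_v3.0_unigene7190 (0.30), which are named only. With only 4 libraries such likeness is a description. Of the 5 contigs, 1 stayed among the nearest with a pseudocount of 0.1 and 2 with a pseudocount of 1.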

How the data were processed

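RNA-Seq was analysed from needles of 4 plants. The authors cleaned paired-end reads in SeqTrimNext, kept the pairs that Bowtie2 placed concordantly on SustainPineDB contigs, counted them with a script of a bioinformatics platform and deposited, for each contig and library, a TMM-scaled CPM signal from edgeR. No source used here gives the versions of Bowtie2 and edgeR. Dividing each column by the CPM of 1 count, found by least squares, gave whole counts for 100% of 70284 values (tolerance 0.01 counts). Recovery and tests were checked on simulated data.

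The provenances were compared across all 17571 contigs on the log2(CPM + 0.5) scale, using limma 3.58.1 (R 4.3.3) with its intensity trend, no covariate and Benjamini-Hochberg adjustment. Calls needed an absolute logFC over 1 beside an adjusted p under 0.05. Because the deposited values are normalized, edgeR 4.0.16 (exact and quasi-likelihood tests) and DESeq2 1.42.0 served as alternatives, on the recovered counts, beside other pseudocounts, filters, priors and scalings, a replicate block and each library left out. Named contigs were the FT/TFL1-like contig, the listed contigs with a row and the 5 most similar profiles. Of the markers, sums and counts were given, with 1 tubulin contig named after its values were seen. The contig and the lists were chosen with earlier results of these data known. Plants of a provenance differed beyond sampling noise (chi-square per degree of freedom 85.4 in Leiria, 184 in Tamrabta).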

Additional observations from a re-analysis of the deposited data

How the results depend on the processing

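The logFC of the FT/TFL1-like contig was negative in all 18 alternatives run and passed the threshold in 4 of them, all with the edgeR exact test. These were the exact test with all libraries (-3.28) and, chosen after seeing the data, without single libraries, where the logFC was -6.71 without L7, -3.57 without T3, -2.91 without T6 and -2.38 without L6, the only one of these that lost the call (adjusted p = 0.161). In limma the leave-one-out range was -3.53 to -1.95. The filter at a mean of 5 CPM removed the contig. Limma called 27 contigs in the table, 17 with a pseudocount of 1, 5 after that filter, 0 without L6, L7 or T3, and 32 without T6. The exact test called 1053, DESeq2 1088 and the quasi-likelihood test 2. Of the 14 listed contigs, the exact test called 8 and DESeq2 9 where limma called 0, and no logFC of these changed sign in 210 alternatives. Summing each library to 1000000 moved the median logFC of all contigs to -0.13. The replicate numbers are shared by the provenances only as numbers. As a replicate block they gave 9 calls and an adjusted p of 0.0837 for the contig, and replicate 1 deviations correlated at 0.20 across contigs. Depth limits the contig in L6, where 2 counts leave the fold change dependent on the pseudocount (logFC -3.76 with 0.1, -2.20 with 1).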

Other observations

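The near absence of the FT/TFL1-like contig from L6 alone is a pattern that 11 contigs of the table showed, with fewer than 3 counts in L6 and at least 50 in each of the other libraries. The same pattern was found for 5 contigs in L7, 4 in T3 and 6 in T6. Among the other 10 of the L6 group, both Tamrabta plants were above both Leiria plants for 5, beside 23.9% of all contigs. The choice of contigs by their low L6 counts had already placed both Tamrabta plants above L6. The 2 shares are therefore not comparable. For sp_v3.0_unigene21223, singled out after its values were seen, L7 was the highest library, with 11.9 CPM against 4.24 in T3 and 2.20 in T6. The array rows held describe none of these 10, so they are given by number only.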
